A study of Mus musculus with 8 samples.

Results

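The genes described here are those whose response to TGF-beta differed between K36M and wild-type (WT) cells. All 8 libraries of the series enter the contrast: mouse embryonic fibroblasts on day 8 of reprogramming by the OKSM factors (Oct4, Klf4, Sox2 and Myc), cultured in AGi medium, sampled as RNA depleted of ribosomal RNA. There were 2 libraries each of K36M cells with 2.5 ng/ml recombinant TGF-beta1, K36M cells with 250 nM Repsox, WT cells with TGF-beta1 and WT cells with Repsox. The labels call the WT cells also H3, and give neither the gene that carries K36M nor the promoter that drives it. They do not state if replicates were grown from different cultures or mice, so the p-values measure the spread between these libraries, which may be technical. A response here is the level with TGF-beta minus the level with Repsox within a genotype, on the log2 scale, and no library had neither agent. The interaction is the response in K36M cells minus the response in WT cells, and it was tested for 15789 genes; 8055 of them (51.0%) passed.

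TGF-beta binds a receptor pair whose type I kinase phosphorylates Smad2 and Smad3, which enter the nucleus with Smad4 and switch on targets that include their own inhibitors. In fibroblasts this pathway maintains matrix and contractile genes and opposes the change to an epithelial state that accompanies early reprogramming; Repsox blocks the type I receptor kinase. K36M replaces a lysine of histone H3 by methionine and is known to inhibit the enzymes that methylate that position. Gene counts do not resolve this single-residue change. Of the histone H3.3 genes, H3f3a had 90.2 and 84.5 CPM in K36M cells with TGF-beta and 57.3 and 56.5 CPM with Repsox. WT cells had 95.2 and 100.2 CPM with TGF-beta and 101 and 102 CPM with Repsox. H3f3b had 339 and 304 CPM in K36M cells with TGF-beta and 266 and 269 CPM with Repsox. WT cells had 221 and 221 CPM with TGF-beta and 247 and 246 CPM with Repsox. Both genotypes thus expressed both genes in every library, and these levels give no check on the label.

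Genes that differed were sorted by their 2 responses. A blunted gene responded in WT and less in K36M, an amplified gene responded in K36M more than in WT, and a reversed gene rose in 1 genotype and fell in the other, with the interaction and each of these responses passing an adjusted p of 0.05 in edgeR. Blunted responses were the most frequent class, with 4338 genes (27.5% of those tested), against 1787 amplified (11.3%) and 1734 reversed (11.0%); 196 genes (1.24%) met none of the 3 rules. Among the blunted genes, 1878 were induced in WT (11.9% of those tested) and 2460 were repressed in WT (15.6%). The K36M response did not pass in 1298 of the induced and 1736 of the repressed genes. In these bulk libraries, fewer cells of a type and less RNA per cell cannot be told apart.

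The middle of each class shows how far the responses stood apart. Blunted induced genes had a median response of 0.08 in K36M and 1.01 in WT, and blunted repressed genes -0.08 in K36M and -1.58 in WT. The 936 amplified induced genes (5.93%) had medians of 1.13 in K36M and 0.04 in WT, and the 851 amplified repressed genes (5.39%) -0.77 in K36M and -0.01 in WT. The 986 reversed genes that rose in K36M (6.24%) had medians of 0.63 in K36M and -1.0 in WT, and the 748 that fell in K36M (4.74%) had -0.47 in K36M and 0.57 in WT. Over all tested genes the median response was 0.01 in K36M and -0.07 in WT, and the median interaction was 0.09. The response itself passed in 7626 genes in K36M (48.3%) and 9851 in WT (62.4%). At 2-fold or more it passed in 1696 genes higher (10.7%) and 1302 lower (8.25%) in K36M, and in 1940 higher (12.3%) and 2887 lower (18.3%) in WT. A blunted log2 response is not always a smaller difference in CPM, the counts scaled to library size: 1861 of the 1878 blunted induced genes and 2046 of the 2460 blunted repressed genes also had the smaller CPM difference in K36M.

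**Figure D1:**
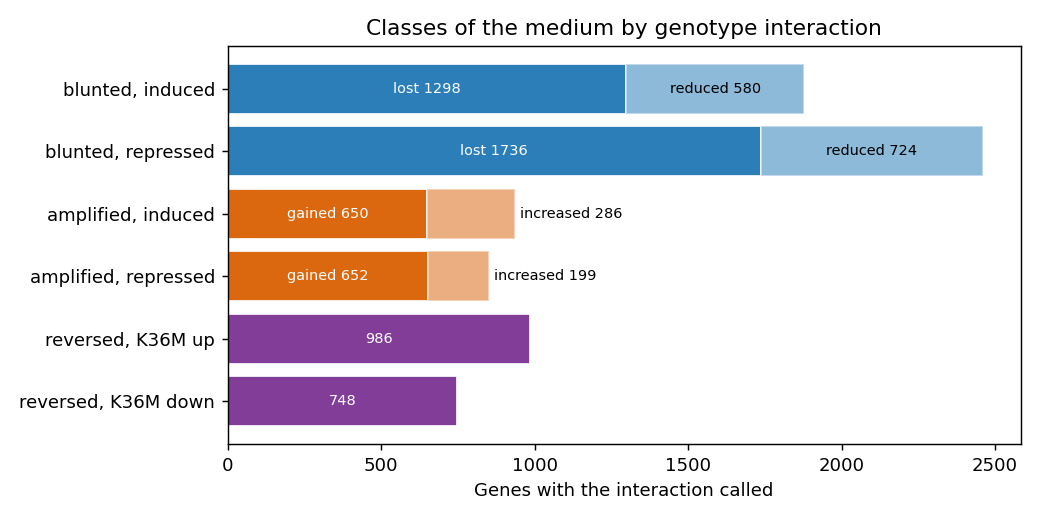
Number of genes in each class of TGF-beta response, split by direction. For blunted genes, lost and reduced mark a K36M response that did not pass and one that did; for amplified genes, gained and increased mark the same for the WT response. Bars start at 0; the longest bar holds the 2460 genes repressed in WT and blunted in K36M.

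Where the genotypes stood apart differed by class. Of the 1878 blunted induced genes, 800 differed between K36M and WT only with TGF-beta and 145 only with Repsox. A further 710 differed in both media with the same sign and 199 with opposite signs. The class median of K36M minus WT was -0.98 with TGF-beta and -0.08 with Repsox. Of the 2460 blunted repressed genes, 1109 differed in both media with the same sign, the largest part, and 233 with opposite signs. Another 880 differed only with TGF-beta and 215 only with Repsox. The class medians were 1.48 with TGF-beta and 0.20 with Repsox. The same split was not counted over all tested genes. For amplified genes the larger median difference lay with Repsox. The median of K36M minus WT was 0.20 with TGF-beta and -0.63 with Repsox for the induced ones. For the repressed ones it was -0.30 with TGF-beta and 0.44 with Repsox. K36M minus WT passed with TGF-beta in 70.3% of all tested genes (36.4% higher, 33.9% lower) and with Repsox in 55.8% (28.8% higher, 26.9% lower). These counts share libraries with the interaction and describe it only.

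**Figure D2:**
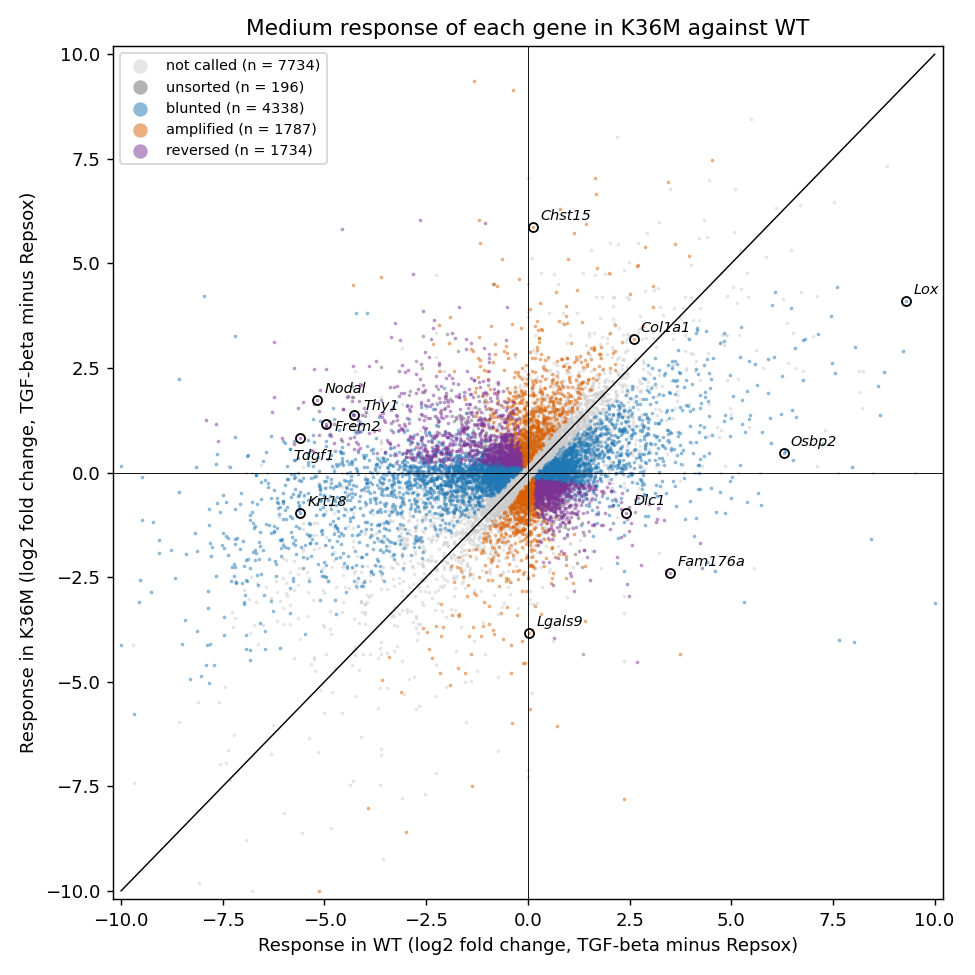
Response in K36M cells (TGF-beta minus Repsox, log2, vertical axis) against the response in WT cells (horizontal axis), 1 point per tested gene, coloured by class. Responses beyond ±10 are drawn at the edge; points on the diagonal would be equal responses, and Nodal sits above it, with a rise in K36M and a fall in WT.

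Sparc, Krt18 and Epcam, chosen after their values were seen, are shown beside their promoters. They were sorted as blunted induced, blunted repressed and reversed, and no amplified gene is shown. Sparc, a secreted matrix glycoprotein (chr11:55208002-55233582, mm9), had 699.9 and 770.2 CPM in K36M cells with TGF-beta and 707 and 669.6 CPM with Repsox. WT cells had 2989.6 and 3156 CPM with TGF-beta and 650.2 and 594 CPM with Repsox. The K36M response of 0.10 did not pass and the WT response was 2.30, so that only WT cells with TGF-beta stood above the other 3 groups. Krt18, a keratin of simple epithelia (chr15:101858647-101862457), had 754 and 699 CPM in K36M cells with TGF-beta and 1462 and 1375 CPM with Repsox. WT cells had 9.55 and 11.6 CPM with TGF-beta and 552 and 478 CPM with Repsox. It fell in both genotypes, by 0.96 in K36M and by 5.60 in WT on the log2 scale, although the drop in CPM was larger in K36M. Epcam, an epithelial adhesion molecule (chr17:88035319-88050446), had 337 and 329 CPM in K36M cells with TGF-beta and 213 and 200.4 CPM with Repsox. WT cells had 16.7 and 8.04 CPM with TGF-beta and 114 and 139 CPM with Repsox. It rose by 0.69 in K36M and fell by 3.38 in WT, and the ranges of TGF-beta and Repsox libraries did not overlap in either genotype; with DESeq2 the K36M rise did not pass and the gene was sorted as blunted. The interaction was -2.21 ± 0.09 (SE, adjusted p = 8.47e-15) for Sparc, 4.63 ± 0.12 (SE, adjusted p = 1.59e-17) for Krt18 and 4.07 ± 0.21 (SE, adjusted p = 6.57e-13) for Epcam.

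The 250 bases before the start of each of these genes (RefSeq, GRCm38.p6, 5′ to 3′ on the gene's strand) are shown with 2 motifs in capitals on either strand: CAGACA, a Smad-binding element that reads TGTCTG on the other strand, and CACCTG, an E-box bound by Snail and Zeb repressors that reads CAGGTG on the other strand. None of the matches overlapped.
Sparc, chr11:55420081-55420330 (- strand): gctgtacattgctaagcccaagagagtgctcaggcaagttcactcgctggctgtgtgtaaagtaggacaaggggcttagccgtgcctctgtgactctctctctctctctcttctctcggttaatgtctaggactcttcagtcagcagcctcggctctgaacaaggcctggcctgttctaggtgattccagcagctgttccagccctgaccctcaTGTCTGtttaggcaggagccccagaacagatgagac
Krt18, chr15:102027966-102028215 (+ strand): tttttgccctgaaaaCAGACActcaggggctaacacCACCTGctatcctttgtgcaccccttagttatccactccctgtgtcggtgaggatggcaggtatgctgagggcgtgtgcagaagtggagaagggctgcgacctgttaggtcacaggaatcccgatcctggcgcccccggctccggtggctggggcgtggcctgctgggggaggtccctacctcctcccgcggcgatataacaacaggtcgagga
Epcam, chr17:87635729-87635978 (+ strand): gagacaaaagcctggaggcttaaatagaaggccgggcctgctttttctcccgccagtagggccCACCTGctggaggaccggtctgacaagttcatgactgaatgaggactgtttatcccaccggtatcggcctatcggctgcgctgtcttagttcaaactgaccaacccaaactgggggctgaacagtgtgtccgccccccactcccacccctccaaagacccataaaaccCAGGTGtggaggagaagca
The Sparc window held 1 CAGACA and 0 CACCTG, the Krt18 window 1 of each, and the Epcam window 0 CAGACA and 2 CACCTG. Both motifs are common: 17.1% of all 32851 promoter windows in the table held CAGACA and 17.2% held CACCTG. The windows of blunted induced genes held CAGACA in 14.3% and CACCTG in 15.4%, those of blunted repressed genes in 12.6% and 18.1%, and those of reversed genes that rose in K36M in 15.1% and 17.8%. The table had 13539 windows for 10571 of the 15789 tested genes, and 13.7% of these windows held CAGACA and 16.6% CACCTG. A match is a string of letters, not a shown binding site.

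Direct TGF-beta targets were mostly induced in both genotypes and less so in K36M. Of 20 targets and feedback genes, 14 rose and 1 fell in K36M (background 24.7% up and 23.6% down), 17 rose and 1 fell in WT (background 29.0% up and 33.4% down), and the interaction was lower in 11 and higher in 3 (background 22.6% lower and 28.5% higher). These background shares are those of all tested genes and hold for every list below. The median interaction over the list was -1.32, with median responses of 0.95 in K36M and 1.91 in WT. Summed over the list, levels were 2092 and 2174 CPM in K36M cells with TGF-beta and 1045 and 1063 CPM with Repsox. WT sums were 7978 and 8102 CPM with TGF-beta and 1328 and 1297 CPM with Repsox. The libraries with TGF-beta were above those with Repsox in both genotypes, and the K36M ones stayed far below the WT ones. Without WT Repsox replicate 2 the number higher was 5, and it was 8 with scaling by total counts alone and 7 with upper-quartile scaling.

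Ctgf, a matricellular growth factor, had 156 and 153 CPM in K36M cells with TGF-beta and 22.3 and 29.3 CPM with Repsox. WT cells had 2052 and 2099 CPM with TGF-beta and 40.7 and 45.5 CPM with Repsox (interaction -3.00 ± 0.13 SE, adjusted p = 1.77e-14). Of the feedback inhibitors, Smad7, which recruits ubiquitin ligases to the receptor, had 91.9 and 102 CPM in K36M cells with TGF-beta and 49 and 46.5 CPM with Repsox. WT cells had 333 and 342 CPM with TGF-beta and 69.3 and 64.8 CPM with Repsox. Its response was 1.02 in K36M and 2.33 in WT, and the interaction -1.31 ± 0.12. Skil and Pmepa1, further inhibitors of Smad signalling, rose in both genotypes and less in K36M: the responses were 1.65 in K36M and 3.01 in WT for Skil, and 3.14 in K36M and 4.83 in WT for Pmepa1. For the ligases Smurf1 and Smurf2 the K36M responses of 0.13 and 0.06 did not pass, while both rose in WT, by 1.54 and 1.40. Against the list, Cdkn2b, the p15 cell-cycle inhibitor, was amplified, with responses of 2.05 in K36M and 0.87 in WT. Fstl3, an activin-binding protein, was reversed at -0.61 in K36M and 2.70 in WT, and Smad6, an inhibitor of BMP signalling, was reversed the other way at 0.78 in K36M and -0.77 in WT. Genes named in this and later paragraphs outside the naming rule were chosen from their lists after their values were seen.

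Ligands, receptors and Smads gave no common direction: of 16, the interaction was higher in 6 and lower in 4 (28.5% higher and 22.6% lower of all tested genes), and the median interaction over the list was 0.06, with median responses of 0.58 in K36M and 0.32 in WT. Tgfbr3, the co-receptor betaglycan, had 7.74 and 10 CPM in K36M cells with TGF-beta and 12.4 and 15.8 CPM with Repsox. WT cells had 2.5 and 3.3 CPM with TGF-beta and 107 and 92.2 CPM with Repsox. It fell in both genotypes, and the WT Repsox libraries stood above the other 3 groups, with an interaction of 4.42 ± 0.26 (SE, adjusted p = 3.06e-12). Ltbp1, a matrix anchor of the latent TGF-beta complex, had 22 and 23.9 CPM in K36M cells with TGF-beta and 14.4 and 14.5 CPM with Repsox. WT cells had 133 and 129.96 CPM with TGF-beta and 329 and 329.8 CPM with Repsox. It was reversed, rising in K36M and falling in WT, and was lower in every K36M library than in any WT library (interaction 1.99 ± 0.13). Tgfbr1, the type I receptor that Repsox inhibits, had responses of -0.25 in K36M and 1.29 in WT, of which the K36M one did not pass. Among the Smads, Smad3 (0.13 in K36M and 0.27 in WT) and Smad4 (-0.10 in K36M and 0.08 in WT) did not pass the interaction test, and Smad2 was reversed at -0.38 in K36M and 0.39 in WT.

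Most genes of the Nodal branch, whose embryonic ligands signal through the same Smads, had a higher response in K36M than in WT. Of 11 tested genes, 6 rose and 3 fell in K36M, and 4 rose and 6 fell in WT. The interaction was higher in 9 and lower in 1, against 28.5% higher and 22.6% lower of all tested genes. Its median over the list was 4.08, with median responses of 0.82 in K36M and -2.30 in WT. Nodal itself (chr10:60880720-60888086) had 59.2 and 61.8 CPM in K36M cells with TGF-beta and 20.9 and 15.4 CPM with Repsox. WT cells had 0.516 and 0.503 CPM with TGF-beta and 18.8 and 18.6 CPM with Repsox. It rose 3.31-fold in K36M and fell 36.1-fold in WT, its TGF-beta and Repsox libraries did not overlap in either genotype, and the interaction was 6.90 ± 0.29 (SE, adjusted p = 1.76e-14). Tdgf1, the Cripto co-receptor for Nodal, had 148 and 155 CPM in K36M cells with TGF-beta and 89 and 82.5 CPM with Repsox. WT cells had 0.947 and 1.87 CPM with TGF-beta and 68.8 and 71.5 CPM with Repsox. Its Repsox libraries were close in the 2 genotypes, and the interaction was 6.41 ± 0.19 (SE, adjusted p = 7.69e-17). Lefty1 and Lefty2 are secreted Nodal inhibitors and textbook Smad2 targets. Lefty2 had 162 and 138 CPM in K36M cells with TGF-beta and 0.132 and 0.322 CPM with Repsox. WT cells had 0.43 and 0.0718 CPM with TGF-beta and 0.0674 and 1.21 CPM with Repsox, so that only the K36M libraries with TGF-beta were high. Lefty1 had 47.1 and 39.2 CPM in K36M cells with TGF-beta and 0.527 and 0.885 CPM with Repsox. WT cells had 6.97 and 3.81 CPM with TGF-beta and 2.02 and 1.89 CPM with Repsox, and it too was highest there. Gdf3, another ligand of the branch, had a K36M response of -0.03 that did not pass and fell by 5.81 in WT. Inhba, an activin subunit, rose in both genotypes (3.32 in K36M and 2.44 in WT) and its interaction did not pass.

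Most BMP-related genes, among them the ID inhibitors of helix-loop-helix factors, fell with TGF-beta in WT. Of 16 genes, 6 fell and 3 rose in K36M, 11 fell and 4 rose in WT, and the interaction was higher in 6 and lower in 2, a share close to that of all tested genes (51.0% in either direction); the median interaction over the list was 0.76, with median responses of -0.33 in K36M and -1.26 in WT. Id2 had 28.9 and 25.6 CPM in K36M cells with TGF-beta and 46 and 47.9 CPM with Repsox. WT cells had 9.47 and 10.3 CPM with TGF-beta and 71.7 and 101 CPM with Repsox (interaction 2.34 ± 0.20 SE, adjusted p = 2.07e-09). Id1 had 47.5 and 51.1 CPM in K36M cells with TGF-beta and 47.6 and 42.1 CPM with Repsox. WT cells had 61.6 and 58.1 CPM with TGF-beta and 163 and 147 CPM with Repsox. Its K36M response of 0.13 did not pass (interaction 1.51 ± 0.13). For both genes the 2 WT Repsox libraries were the highest of the 8. Nog, which encodes the BMP antagonist noggin, was amplified at 3.55 in K36M and 0.90 in WT, with 23 counts in K36M with TGF-beta and 2 counts with Repsox, a ratio of 13.1 (exact 95% interval 3.24 to 115).

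**Figure D3:**
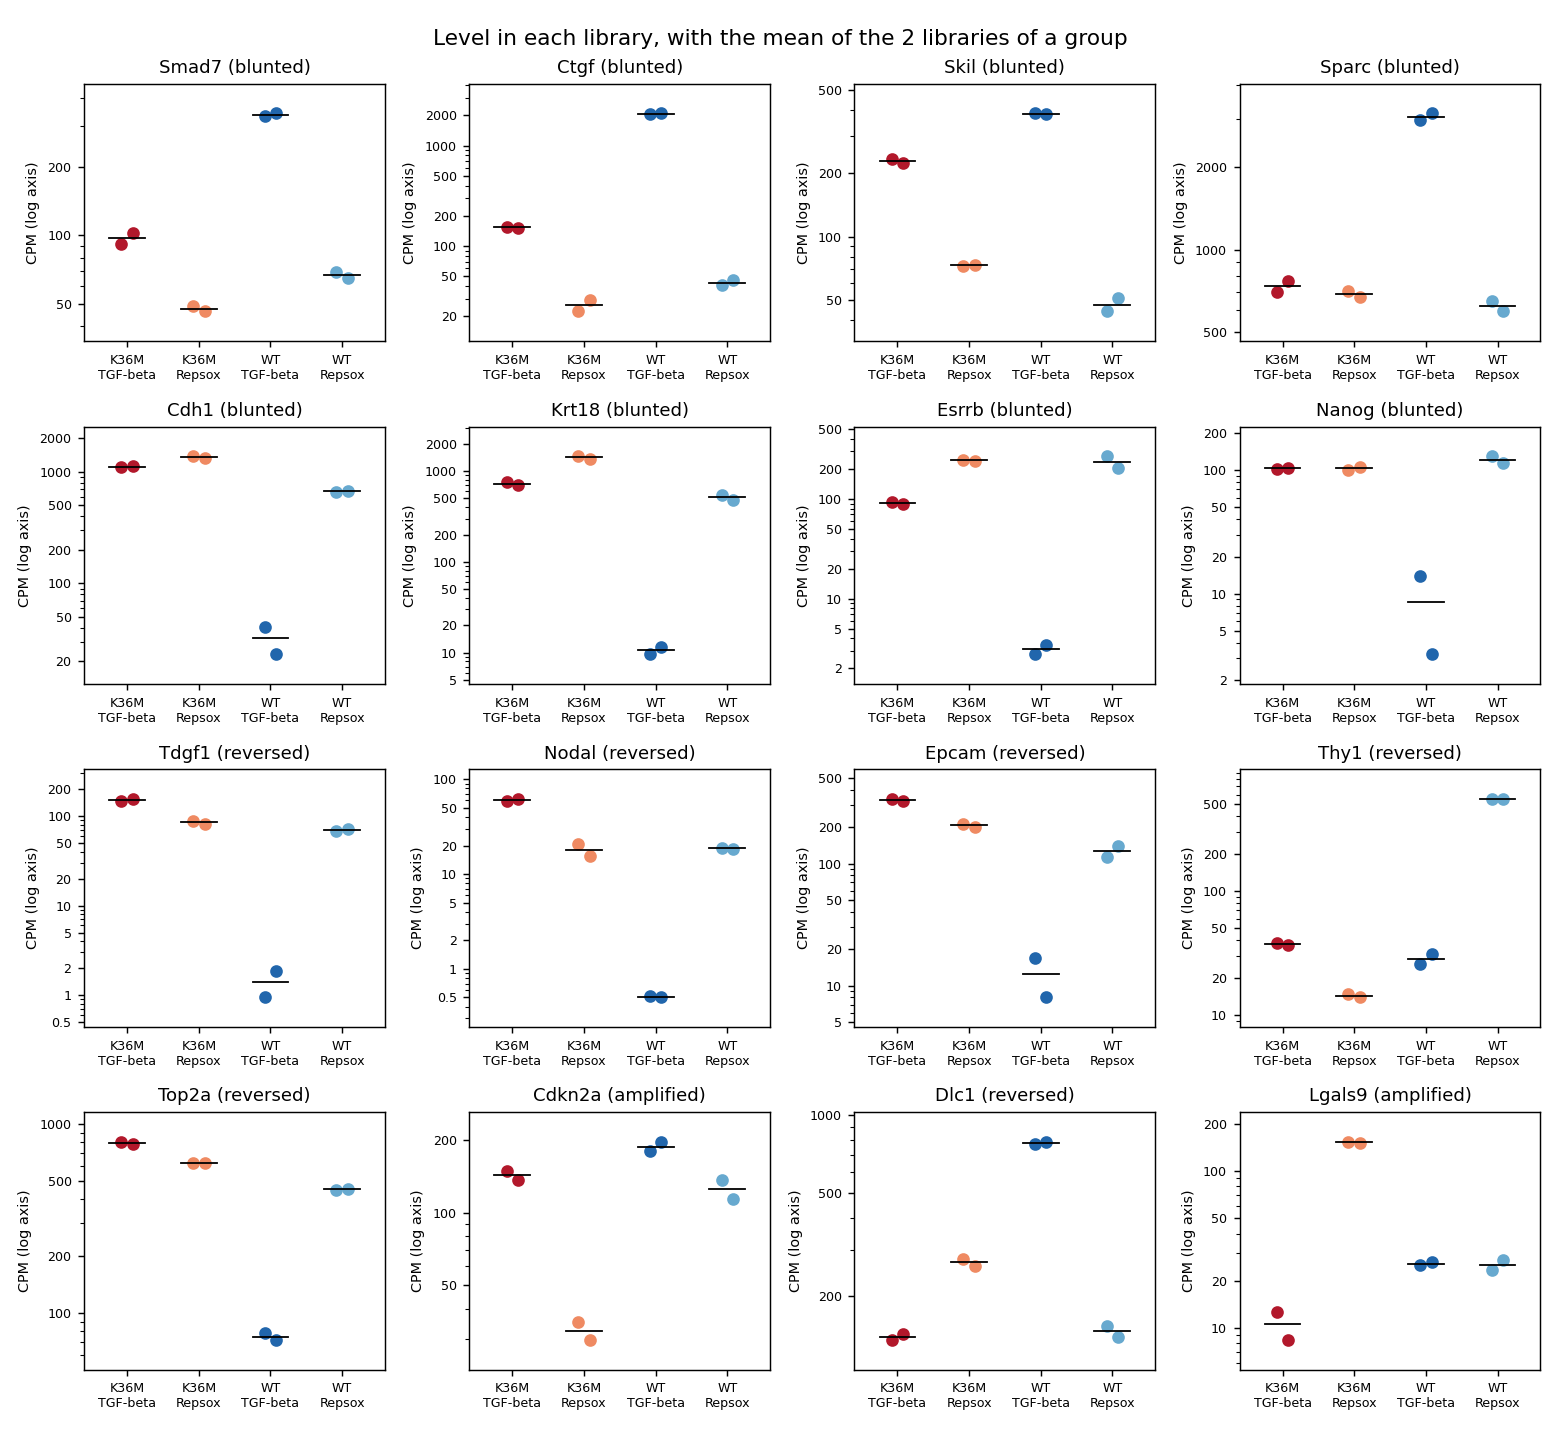
Levels in CPM (log axis) of selected genes in each of the 8 libraries, K36M left of WT and TGF-beta left of Repsox within each genotype; points are libraries and bars the group means. Nodal is high in K36M with TGF-beta and near 0.5 CPM in WT with TGF-beta, while Ctgf is highest in WT with TGF-beta.

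Most matrix genes rose in both genotypes, with the difference between genotypes running in both directions. Of 22 tested genes, 18 rose and 1 fell in K36M, and 17 rose and 3 fell in WT. The interaction was higher in 11 and lower in 10, against 28.5% higher and 22.6% lower of all tested genes. Its median over the list was 0.55, with median responses of 2.07 in K36M and 1.47 in WT. Summed levels were 4426 and 4725 CPM in K36M cells with TGF-beta and 2863 and 2828 CPM with Repsox. WT sums were 41038 and 43993 CPM with TGF-beta and 8542 and 7814 CPM with Repsox. All K36M libraries were below all WT Repsox libraries. Lox, the enzyme that crosslinks collagen, had 44.5 and 58.5 CPM in K36M cells with TGF-beta and 0.79 and 5.63 CPM with Repsox. WT cells had 2599.8 and 2652 CPM with TGF-beta and 4.58 and 3.7 CPM with Repsox. Its 2 K36M Repsox libraries differed by several-fold, and the interaction of -5.20 ± 0.51 (SE, adjusted p = 1.45e-08) was -3.29 without K36M Repsox replicate 2. Col1a1, the main chain of type I collagen, had 306 and 299 CPM in K36M cells with TGF-beta and 29.1 and 37.7 CPM with Repsox. WT cells had 2200.3 and 2590 CPM with TGF-beta and 452 and 339.8 CPM with Repsox. Its responses were 3.19 in K36M and 2.60 in WT; the interaction of 0.59 ± 0.16 (SE, adjusted p = 0.00305) was 0.37 without WT Repsox replicate 1, and it did not pass without K36M Repsox replicate 1 (adjusted p = 0.0545 in edgeR) or with DESeq2 (adjusted p = 0.11). In CPM the rise was larger in WT. Col6a2, a chain of type VI collagen, had 32.7 and 42.6 CPM in K36M cells with TGF-beta and 17.3 and 19.8 CPM with Repsox. WT cells had 30.5 and 40.5 CPM with TGF-beta and 338 and 308 CPM with Repsox. It was reversed, with an interaction of 4.20 ± 0.18 (SE, adjusted p = 2.75e-14). Dcn and Bgn, proteoglycans that bind collagen, were amplified, at 2.77 in K36M and 0.49 in WT for Dcn and 1.59 in K36M and 0.24 in WT for Bgn. Fn1, fibronectin, was blunted at 0.22 in K36M and 1.73 in WT.

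Most contractile genes of the smooth muscle and myofibroblast programme rose in both genotypes. As blunted, 8 of 13 were sorted, against 27.5% of all tested genes. Of the 13, 10 rose and 2 fell in K36M, and 11 rose and 0 fell in WT. The interaction was lower in 9 and higher in 0, against 22.6% lower and 28.5% higher of all tested genes. Its median over the list was -1.01, with median responses of 1.22 in K36M and 2.41 in WT. At total-count scaling 7 were lower and 0 higher. Tagln, an actin-binding protein of smooth muscle, had 180.1 and 173 CPM in K36M cells with TGF-beta and 10.7 and 11.2 CPM with Repsox. WT cells had 613 and 643 CPM with TGF-beta and 9.37 and 10.4 CPM with Repsox. The Repsox libraries of the 2 genotypes were close and the TGF-beta libraries did not overlap, and the interaction was -1.98 ± 0.14 (SE, adjusted p = 7.28e-11). Cald1, caldesmon, had 456 and 477 CPM in K36M cells with TGF-beta and 237 and 236 CPM with Repsox. WT cells had 1160.3 and 1169 CPM with TGF-beta and 194 and 235 CPM with Repsox (interaction -1.46 ± 0.10 SE, adjusted p = 1.01e-10). Acta2, smooth muscle actin, had responses of 2.74 in K36M and 4.54 in WT, Cnn1 (calponin) of 3.10 in K36M and 4.73 in WT and Tpm1 (tropomyosin) of 1.22 in K36M and 2.41 in WT. Itga7, an integrin of muscle, fell by 1.27 in K36M, and its WT response of -0.36 did not pass.

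Mesenchymal transcription factors gave mixed responses. Of 12, the interaction was higher in 5 and lower in 0, against 28.5% higher and 22.6% lower of all tested genes, 6 rose and 1 fell in K36M, and 3 rose and 6 fell in WT; the median interaction over the list was 0.55, with median responses of 0.65 in K36M and -0.62 in WT. Without K36M TGF-beta replicate 1 the number higher was 3. Prrx2, a homeobox factor of mesenchyme, had 9.61 and 8.56 CPM in K36M cells with TGF-beta and 4.74 and 3.94 CPM with Repsox. WT cells had 17.5 and 19 CPM with TGF-beta and 52 and 51.3 CPM with Repsox. Every K36M library was below every WT library, and the response was reversed (interaction 2.56 ± 0.22 SE, adjusted p = 1.73e-09). Tcf4, an E-protein, had 41.9 and 49.5 CPM in K36M cells with TGF-beta and 25.2 and 27.3 CPM with Repsox. WT cells had 89 and 97.7 CPM with TGF-beta and 133 and 150.2 CPM with Repsox (interaction 1.40 ± 0.14 SE, adjusted p = 2.82e-08). Snai2, which encodes the Slug repressor of epithelial genes, was reversed at 1.92 in K36M and -1.05 in WT. For Snai1, a related repressor (0.13 in K36M and -0.33 in WT), and Zeb2 (0.89 in K36M and 0.75 in WT) the interaction did not pass.

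Fibroblast markers were present in both genotypes, with lower summed levels in K36M. Summed over 10 genes, levels were 859 and 880.4 CPM in K36M cells with TGF-beta and 193 and 226 CPM with Repsox. WT sums were 10481 and 11693 CPM with TGF-beta and 3583 and 3319 CPM with Repsox. By gene, 7 rose and 2 fell in K36M, but 4 rose and 6 fell in WT. Median responses were 1.17 in K36M and -1.04 in WT. The higher WT sum with TGF-beta thus does not describe most members. Thy1, the surface marker that is lost early in reprogramming (chr9:43851467-43856662), had 37.9 and 36.7 CPM in K36M cells with TGF-beta and 14.7 and 13.9 CPM with Repsox. WT cells had 25.7 and 31.2 CPM with TGF-beta and 552 and 549.7 CPM with Repsox. It was reversed, with a rise of 1.38 in K36M and a fall of 4.27 in WT, and only the WT Repsox libraries were high (interaction 5.65 ± 0.14 SE, adjusted p = 8.3e-18). Pdgfrb, a receptor of mesenchymal cells, had 29.1 and 28.2 CPM in K36M cells with TGF-beta and 17.8 and 17.9 CPM with Repsox. WT cells had 41.3 and 43.4 CPM with TGF-beta and 82.8 and 74.6 CPM with Repsox. It was reversed, with an interaction of 1.58 ± 0.15 (SE, adjusted p = 8.18e-09). Vim, vimentin, rose in both genotypes by 1.64 in K36M and 1.42 in WT; its interaction of 0.22 ± 0.10 (SE, adjusted p = 0.0672) did not pass, and ranged from 0.10 to 0.44 over the settings tried. It passed with total-count or upper-quartile scaling, with no low-count filter, with a replicate block, and without K36M TGF-beta replicate 1, K36M Repsox replicate 2 or WT Repsox replicate 2. Of the 10 markers the interaction was higher in 6 and lower in 2, against 28.5% higher and 22.6% lower of all tested genes. The share lower was close to that background.

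Most epithelial genes fell with TGF-beta in WT and had a smaller response in K36M. Of 37 genes, 19 fell and 7 rose in K36M, and 34 fell and 2 rose in WT. The interaction was higher in 34 and lower in 2, Jup and Esrp2, against 28.5% higher and 22.6% lower of all tested genes. Its median over the list was 3.47, with median responses of -0.36 in K36M and -3.41 in WT. As blunted 28 were sorted and as reversed 4, against 27.5% and 11.0% of all tested genes. The number lower was 0 without WT TGF-beta replicate 2 and 1 without any of 5 other libraries (either K36M TGF-beta, either K36M Repsox, or WT TGF-beta replicate 1), 0 with total-count scaling and 1 with upper-quartile scaling. Summed levels were 7934 and 7599 CPM in K36M cells with TGF-beta and 9316 and 8964 CPM with Repsox. WT sums were 1283 and 1195 CPM with TGF-beta and 4206 and 3968 CPM with Repsox. The WT libraries with TGF-beta were the lowest. Cdh1, E-cadherin (chr8:109127251-109194146), had 1109.6 and 1127 CPM in K36M cells with TGF-beta and 1383 and 1333 CPM with Repsox. WT cells had 41.1 and 23.1 CPM with TGF-beta and 666 and 679.98 CPM with Repsox. The 2 WT TGF-beta libraries differed from each other, and both were far below the other 6 (interaction 4.13 ± 0.17 SE, adjusted p = 1.64e-14). Krt8, the partner of Krt18, had 568 and 535 CPM in K36M cells with TGF-beta and 955 and 927 CPM with Repsox. WT cells had 14.9 and 12.7 CPM with TGF-beta and 428 and 379.5 CPM with Repsox (interaction 4.11 ± 0.12 SE, adjusted p = 3.66e-17). Krt7, a keratin of simple and trophoblast epithelia, had 146 and 137 CPM in K36M cells with TGF-beta and 411 and 391 CPM with Repsox. WT cells had 0.258 and 0.79 CPM with TGF-beta and 106 and 85.7 CPM with Repsox (interaction 5.92 ± 0.26 SE, adjusted p = 2.43e-14); its fall in CPM was larger in K36M. Of the transcriptional and splicing regulators of the epithelial state, Grhl2 had responses of -0.23 in K36M and -3.13 in WT, Ovol2 of -0.69 in K36M and -4.62 in WT, and Esrp1 of -0.08 in K36M and -4.35 in WT.

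Most pluripotency genes fell in both genotypes, and for most the interaction was higher. Of 31 genes, 24 fell and 5 rose in K36M, and 27 fell and 3 rose in WT. The interaction was higher in 26 and lower in 3, against 28.5% higher and 22.6% lower of all tested genes. Its median over the list was 3.72, with median responses of -1.26 in K36M and -4.99 in WT. Summed levels were 2431 and 2407 CPM in K36M cells with TGF-beta and 4001 and 3946 CPM with Repsox. WT sums were 1709 and 1673 CPM with TGF-beta and 4132 and 3613 CPM with Repsox. These sums include Pou5f1, Sox2 and Klf4, which OKSM supplies. In WT cells with TGF-beta their means were 425, 313 and 688 CPM, most of the sum, so the sums understate the fall of the other members in WT. Nanog, a core factor that OKSM does not supply (chr6:122657507-122664651), had 103 and 105 CPM in K36M cells with TGF-beta and 101 and 107 CPM with Repsox. WT cells had 13.9 and 3.23 CPM with TGF-beta and 129.8 and 114 CPM with Repsox. The K36M libraries did not separate by medium, the 2 WT TGF-beta libraries differed several-fold but were the lowest of all 8, and the interaction was 3.90 ± 0.32 (SE, adjusted p = 9.27e-10), 3.14 to 5.24 over the settings tried. Sall4, a zinc-finger factor of pluripotent cells, had 173 and 188 CPM in K36M cells with TGF-beta and 359 and 363 CPM with Repsox. WT cells had 9.81 and 8.69 CPM with TGF-beta and 318 and 277 CPM with Repsox (interaction 4.01 ± 0.13 SE, adjusted p = 3.49e-16). Dnmt3b, a de novo DNA methyltransferase that binds methylated H3K36, had 133 and 122 CPM in K36M cells with TGF-beta and 162 and 169.9 CPM with Repsox. WT cells had 6.54 and 4.6 CPM with TGF-beta and 181 and 168 CPM with Repsox (interaction 4.61 ± 0.16 SE, adjusted p = 5.61e-16). Esrrb, an orphan nuclear receptor of naive cells, was repressed in both genotypes, at -1.43 in K36M and -6.25 in WT. L1td1 rose in K36M and fell in WT.

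The factors that OKSM supplies had responses smaller than 1 on the log2 scale in both genotypes, and gene counts do not separate transgene from own transcripts where they share sequence. Pou5f1 (Oct4) had 312 and 309 CPM in K36M cells with TGF-beta and 209 and 206 CPM with Repsox. WT cells had 435 and 416 CPM with TGF-beta and 420.4 and 375 CPM with Repsox. It was amplified (interaction 0.49 ± 0.10 SE, adjusted p = 0.000262). Sox2 had 101 and 112 CPM in K36M cells with TGF-beta and 182 and 173 CPM with Repsox. WT cells had 316 and 310.1 CPM with TGF-beta and 288 and 266 CPM with Repsox. Its responses were -0.74 in K36M and 0.18 in WT, and its interaction was -0.91 ± 0.11 (SE, adjusted p = 2.35e-07), but its small WT rise did not pass, and it was sorted as amplified, with total-count or upper-quartile scaling, with no low-count filter, at an adjusted p of 0.01, and without either K36M Repsox library, either WT TGF-beta library or WT Repsox replicate 2. Klf4 had 194 and 221 CPM in K36M cells with TGF-beta and 177 and 173 CPM with Repsox. WT cells had 689.8 and 687 CPM with TGF-beta and 481 and 445 CPM with Repsox. Its interaction of -0.33 ± 0.10 (SE, adjusted p = 0.00937) did not pass with total-count scaling (adjusted p = 0.403), with upper-quartile scaling (adjusted p = 0.0827) or without K36M TGF-beta replicate 1 (adjusted p = 0.0788, edgeR). Myc had 187 and 184 CPM in K36M cells with TGF-beta and 129.9 and 138 CPM with Repsox. WT cells had 577 and 570.2 CPM with TGF-beta and 379 and 349.9 CPM with Repsox. It rose in both genotypes, and its interaction of -0.18 ± 0.10 (SE, adjusted p = 0.13) did not pass, except without WT Repsox replicate 1 (adjusted p = 0.0192). Pou5f1, Sox2, Klf4 and Myc were each lower in every K36M library than in any WT library.

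Most trophoblast genes fell with TGF-beta in both genotypes, and most imprinted genes fell in WT. For both lists the background was an interaction higher in 28.5% and lower in 22.6% of all tested genes. Of 15 trophoblast genes, 14 fell and 0 rose in each genotype, and the interaction was higher in 10 and lower in 0. Its median over the list was 2.75, with median responses of -2.44 in K36M and -5.15 in WT. Leaving out K36M TGF-beta replicate 1, either WT TGF-beta library or WT Repsox replicate 1 gave 1 lower. Tfap2c, an AP-2 transcription factor of the trophectoderm lineage, had 78.2 and 80.4 CPM in K36M cells with TGF-beta and 219.8 and 206 CPM with Repsox. WT cells had 2.58 and 1.87 CPM with TGF-beta and 129 and 121 CPM with Repsox (interaction 4.40 ± 0.17 SE, adjusted p = 5.04e-15). Of 19 imprinted genes, 8 fell and 7 rose in K36M, 14 fell and 2 rose in WT, and the interaction was higher in 15 and lower in 0 (1 lower without K36M Repsox replicate 1); the median interaction over the list was 2.12, with median responses of -0.10 in K36M and -1.48 in WT. Peg3, a paternally expressed zinc-finger gene, had 462 and 447 CPM in K36M cells with TGF-beta and 1221 and 1190.5 CPM with Repsox. WT cells had 29.7 and 29.7 CPM with TGF-beta and 750.3 and 752 CPM with Repsox (interaction 3.25 ± 0.09 SE, adjusted p = 3.62e-17). Peg10, a retrotransposon-derived placental gene, had 1375 and 1343 CPM in K36M cells with TGF-beta and 8148 and 8214 CPM with Repsox. WT cells had 83.2 and 118 CPM with TGF-beta and 3986 and 4399 CPM with Repsox (interaction 2.79 ± 0.13 SE, adjusted p = 5.27e-14). Both fell by more CPM in K36M, where the Repsox level was higher. Meg3 and Rian, non-coding RNAs of the same imprinted cluster, rose in K36M and fell in WT, at 1.45 in K36M and -0.38 in WT for Meg3 and 1.55 in K36M and -0.52 in WT for Rian. H19 had responses of -2.19 in K36M and -7.24 in WT.

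Primitive streak genes, which Nodal and Wnt switch on in the embryo, were low, and 8 of 16 were testable. The interaction was higher in 3 and lower in 0 (1 lower without either WT TGF-beta library or without WT Repsox replicate 2). It did not pass in 5. Of all tested genes it was higher in 28.5% and lower in 22.6%. Over the 8 streak genes, 3 rose and 3 fell in K36M, and 0 rose and 4 fell in WT. Their median interaction over the list was 3.54, with median responses of 0.35 in K36M and -1.65 in WT; with genes at 0 in a group set to 3 counts over that group, the median interaction was 2.45 and the median WT response -1.0. Wnt3, a Wnt ligand of the posterior epiblast, had 16.1 and 16 CPM in K36M cells with TGF-beta and 1.05 and 1.13 CPM with Repsox. WT cells had 0.516 and 0.215 CPM with TGF-beta and 3.17 and 1.06 CPM with Repsox. It was high only in K36M with TGF-beta (interaction 6.45 ± 0.64 SE, adjusted p = 2.11e-08). Eomes, a T-box factor of the streak, had 7.58 and 7.78 CPM in K36M cells with TGF-beta and 6.65 and 5.07 CPM with Repsox. WT cells had 0.344 and 0.79 CPM with TGF-beta and 10.2 and 9.29 CPM with Repsox. Its K36M response of 0.38 did not pass (interaction 4.42 ± 0.42 SE, adjusted p = 1.13e-08). T, brachyury, had 130 counts in K36M with TGF-beta and 2 counts with Repsox, a ratio of 74.1 (exact 95% interval 20.1 to 618), and was at 0.172 and 0.215 CPM in WT with TGF-beta and 1.62 and 0.907 CPM with Repsox. Wnt8a, another Wnt ligand but not a member of this list, had 46.7 and 47.4 CPM in K36M cells with TGF-beta and 6.58 and 8.45 CPM with Repsox. WT cells had 1.46 and 0.359 CPM with TGF-beta and 10.9 and 12.6 CPM with Repsox (interaction 6.40 ± 0.35 SE, adjusted p = 1.04e-12). Foxa2, Gsc and Mixl1, at no more than 9 counts in any library, were not tested.

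Nearly all cell division genes fell with TGF-beta in WT, against 33.4% of all tested genes. Over all tested genes, the interaction was higher in 28.5% and lower in 22.6%. Of 26 genes, 3 fell and 8 rose in K36M, 25 fell and 0 rose in WT, and the interaction was higher in 25 and lower in 1, Ccne2 (0 lower without K36M TGF-beta replicate 1); the median interaction over the list was 2.15, with median responses of 0.05 in K36M and -2.11 in WT. Summed levels were 5215 and 5169 CPM in K36M cells with TGF-beta and 4628 and 4638 CPM with Repsox. WT sums were 1159 and 1167 CPM with TGF-beta and 3992 and 3930.1 CPM with Repsox. The WT TGF-beta libraries were the only low ones. Top2a, the topoisomerase of dividing cells, had 804 and 783 CPM in K36M cells with TGF-beta and 625 and 623 CPM with Repsox. WT cells had 78.2 and 71.9 CPM with TGF-beta and 448 and 453 CPM with Repsox. It rose slightly in K36M (0.35) and fell by 2.59 in WT (interaction 2.94 ± 0.09 SE, adjusted p = 1.75e-16). Cdc20, an activator of the anaphase-promoting complex, had 267 and 266 CPM in K36M cells with TGF-beta and 175 and 178 CPM with Repsox. WT cells had 30.7 and 30.8 CPM with TGF-beta and 209 and 187 CPM with Repsox (interaction 3.28 ± 0.12 SE, adjusted p = 8.86e-16). The replicative helicase genes Mcm2 (-0.13 in K36M and -1.76 in WT) and Mcm5 (-0.14 in K36M and -2.67 in WT) fell in WT, and their K36M responses did not pass.

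Inhibitors of the cell cycle and p53 targets mostly had a higher interaction. Of 17 genes, 14 rose and 3 fell in K36M, and 8 rose and 5 fell in WT. The interaction was higher in 14 and lower in 1, Ccng1, against 28.5% higher and 22.6% lower of all tested genes. Its median over the list was 0.64, with median responses of 0.79 in K36M and 0.23 in WT. The number lower was 0 without K36M TGF-beta replicate 2, either K36M Repsox library, WT TGF-beta replicate 2 or WT Repsox replicate 1, and with total-count or upper-quartile scaling. Cdkn2a, the Ink4a and Arf locus, had 149 and 137 CPM in K36M cells with TGF-beta and 35.1 and 29.6 CPM with Repsox. WT cells had 179.99 and 197 CPM with TGF-beta and 137 and 114 CPM with Repsox. It was amplified (interaction 1.55 ± 0.14 SE, adjusted p = 5.19e-09). Its K36M Repsox libraries were far below the other 6. Cdkn1c, the imprinted p57 inhibitor, had 56 and 53.3 CPM in K36M cells with TGF-beta and 481 and 442 CPM with Repsox. WT cells had 2.41 and 4.6 CPM with TGF-beta and 297 and 275 CPM with Repsox. It was blunted (interaction 3.24 ± 0.18 SE, adjusted p = 2.19e-12), with the larger drop in CPM in K36M. Cdkn1a, p21, rose in both genotypes (1.28 in K36M and 1.38 in WT) and its interaction did not pass.

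Most interferon-response genes fell with TGF-beta in both genotypes, and the interaction passed in 6 of 21, against 51.0% of all tested genes. Of 21 genes, 19 fell and 0 rose in K36M, 18 fell and 0 rose in WT, and the interaction was lower in 3 and higher in 3; the median interaction over the list was -0.57, with median responses of -3.36 in K36M and -2.28 in WT. The number lower was 5 without K36M TGF-beta replicate 1 or WT TGF-beta replicate 1, and 6 without WT Repsox replicate 1. Bst2, tetherin, had 144 and 137 CPM in K36M cells with TGF-beta and 205 and 193 CPM with Repsox. WT cells had 8.44 and 8.33 CPM with TGF-beta and 63.4 and 57.6 CPM with Repsox. It was blunted on the log2 scale (interaction 2.35 ± 0.14 SE, adjusted p = 4.63e-12). Summed levels were 361 and 369.9 CPM in K36M cells with TGF-beta and 1165 and 1118 CPM with Repsox. WT sums were 77 and 76.5 CPM with TGF-beta and 256 and 247 CPM with Repsox.

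Among 11 AP-1 and early-response genes the interaction was higher in 3 and lower in 4, against 28.5% higher and 22.6% lower of all tested genes, with 1 higher without K36M TGF-beta replicate 1, WT TGF-beta replicate 1 or WT Repsox replicate 1. Egr1, a zinc-finger early gene, had 23.3 and 33.6 CPM in K36M cells with TGF-beta and 16.9 and 16.5 CPM with Repsox. WT cells had 31 and 26.3 CPM with TGF-beta and 89 and 79.2 CPM with Repsox. It was reversed (interaction 2.32 ± 0.20 SE, adjusted p = 1.55e-09). Maff, a small Maf protein, had 18.3 and 18.6 CPM in K36M cells with TGF-beta and 25.4 and 24.2 CPM with Repsox. WT cells had 20.2 and 19 CPM with TGF-beta and 13.5 and 12.9 CPM with Repsox. Its interaction was -0.99 ± 0.19 (SE, adjusted p = 0.000121), and its small fall in K36M failed without K36M TGF-beta replicate 1 or K36M Repsox replicate 1. Of 16 genes for H3K36 methylation and H3.3, the interaction was higher in 4 and lower in 7 (28.5% higher and 22.6% lower of all tested genes), and the median interaction over the list was -0.29, with median responses of -0.32 in K36M and 0.03 in WT. Whsc1l1 (Nsd3), an H3K36 methyltransferase, had 69.6 and 82 CPM in K36M cells with TGF-beta and 119.6 and 118 CPM with Repsox. WT cells had 136 and 144 CPM with TGF-beta and 104 and 93.1 CPM with Repsox. It was reversed (interaction -1.15 ± 0.13 SE, adjusted p = 1.11e-07). Setd2, which trimethylates H3K36, had responses of -0.43 in K36M and -0.14 in WT, and Nsd1 of -0.35 in K36M and -0.48 in WT, whose interaction did not pass. H3f3a and H3f3b rose in K36M, with interactions of 0.68 ± 0.12 and 0.42 ± 0.10; H3f3a was sorted as reversed with total-count scaling, and H3f3b as reversed or unsorted in 6 settings.

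**Figure D4:**
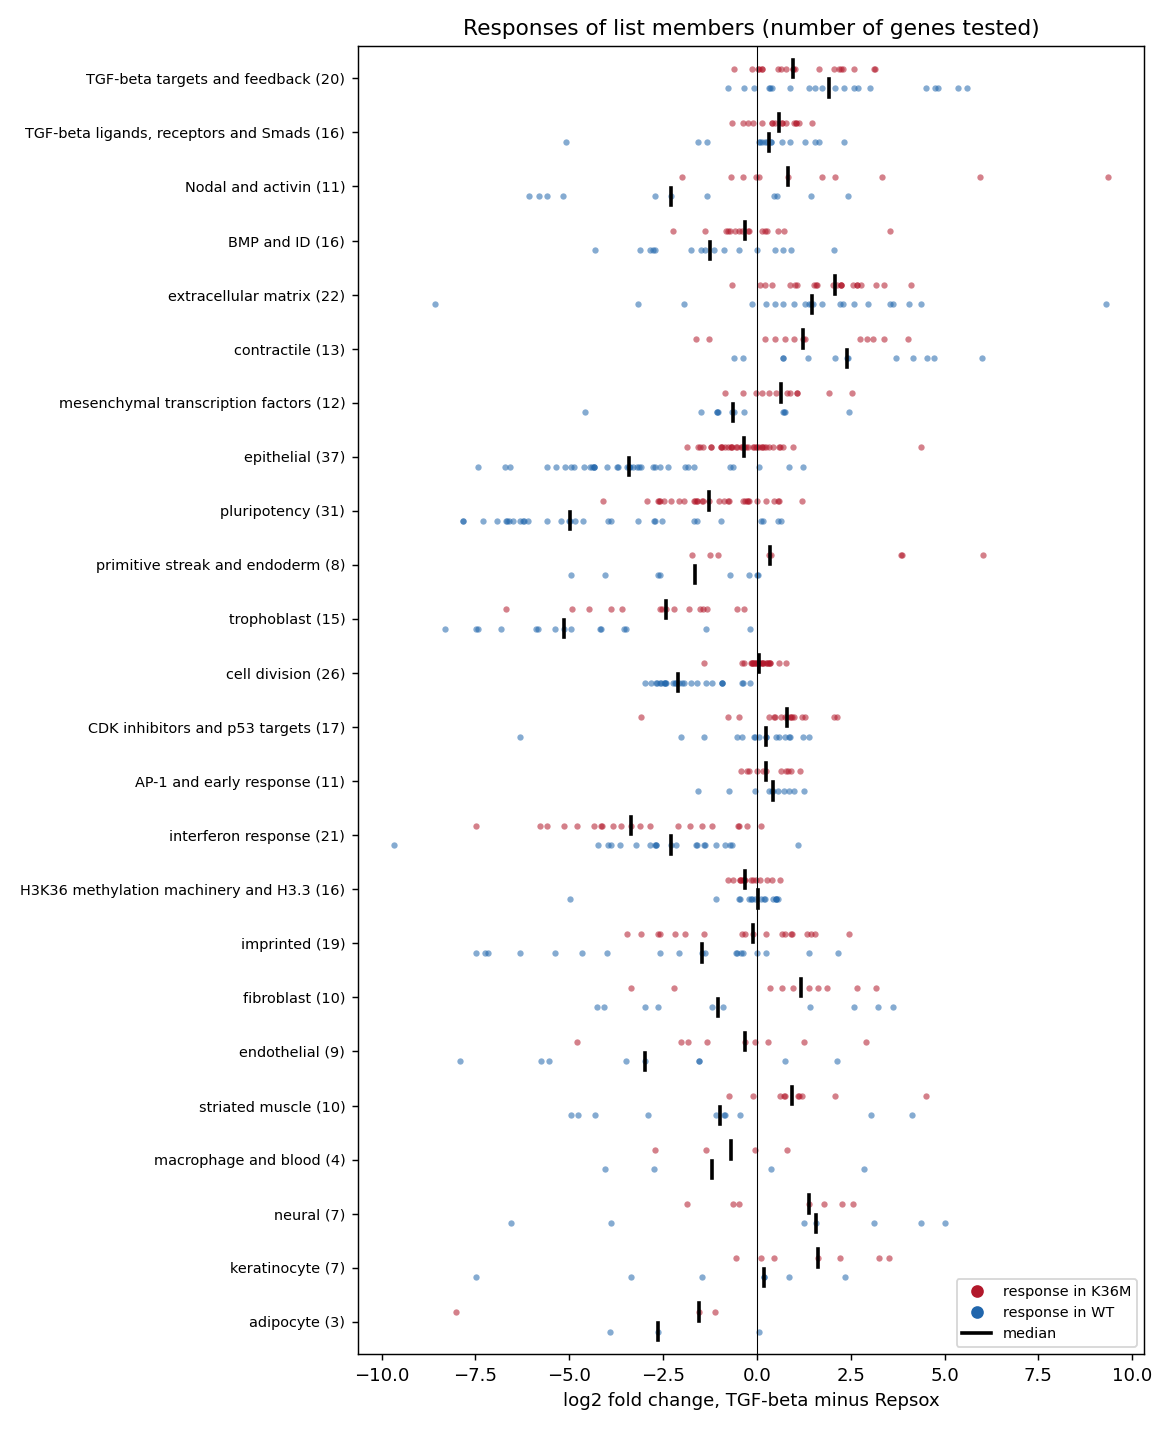
Log2 response (TGF-beta minus Repsox, horizontal axis) of every tested member of the gene lists, 1 point per gene, K36M above WT within each list, with black bars for the list medians. Responses beyond ±10 are drawn at the edge; the pluripotency medians lie at -1.26 in K36M and -4.99 in WT, and the contractile ones at 1.22 in K36M and 2.41 in WT.

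The genes that the naming rule took from the ends of each class were of mixed function. Among blunted induced genes, Cryab, a small heat-shock protein, had 162 and 186 CPM in K36M cells with TGF-beta and 127 and 124 CPM with Repsox. WT cells had 1538 and 1425 CPM with TGF-beta and 115 and 104 CPM with Repsox (interaction -3.29 ± 0.11 SE, adjusted p = 3.05e-16). Osbp2, an oxysterol-binding protein, had 7.03 and 9.7 CPM in K36M cells with TGF-beta and 4.87 and 7.4 CPM with Repsox. WT cells had 656 and 657 CPM with TGF-beta and 8.97 and 7.78 CPM with Repsox (interaction -5.83 ± 0.24 SE, adjusted p = 8.47e-15). Among blunted repressed genes, Crabp1, a retinoic acid-binding protein, had 16.3 and 15.9 CPM in K36M cells with TGF-beta and 15.5 and 18.3 CPM with Repsox. WT cells had 1.29 and 2.58 CPM with TGF-beta and 192 and 217 CPM with Repsox (interaction 6.62 ± 0.23 SE, adjusted p = 5.8e-16). Stc1, a secreted glycoprotein, had 2.42 and 1.57 CPM in K36M cells with TGF-beta and 1.25 and 0.885 CPM with Repsox. WT cells had 1.29 and 1.58 CPM with TGF-beta and 35.3 and 51.7 CPM with Repsox (interaction 5.79 ± 0.50 SE, adjusted p = 1.91e-09); its small K36M rise passed, and made it reversed, without either WT Repsox library. In each of these 4 genes 1 WT group stood far above the other 3 groups, the TGF-beta one for Cryab and Osbp2 and the Repsox one for Crabp1 and Stc1.

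In 5 of the 6 amplified genes that the rule took from the ends of the class, the K36M Repsox libraries were the lowest or the highest of the 8. Chst15, a sulfotransferase of chondroitin chains, had 63 and 64.3 CPM in K36M cells with TGF-beta and 1.32 and 0.804 CPM with Repsox. WT cells had 26.7 and 27.6 CPM with TGF-beta and 24.7 and 24.8 CPM with Repsox (interaction 5.73 ± 0.23 SE, adjusted p = 5.94e-15). Aldh3a1, an aldehyde dehydrogenase, had 113 and 137 CPM in K36M cells with TGF-beta and 15.7 and 15.4 CPM with Repsox. WT cells had 383 and 375 CPM with TGF-beta and 328 and 326 CPM with Repsox (interaction 2.79 ± 0.13 SE, adjusted p = 6.13e-14). Mmp9, a gelatinase, had 47.6 and 40.8 CPM in K36M cells with TGF-beta and 3.82 and 1.93 CPM with Repsox. WT cells had 5.08 and 3.23 CPM with TGF-beta and 4.38 and 3.55 CPM with Repsox (interaction 3.86 ± 0.37 SE, adjusted p = 8.9e-09). Chst15 and Aldh3a1 were lowest in K36M with Repsox, while Mmp9 was high only in K36M with TGF-beta. Of the amplified repressed genes, Lgals9, a galectin, had 12.7 and 8.39 CPM in K36M cells with TGF-beta and 154 and 152 CPM with Repsox. WT cells had 25.3 and 26.3 CPM with TGF-beta and 23.6 and 27.2 CPM with Repsox (interaction -3.87 ± 0.18 SE, adjusted p = 9.58e-14). Serpinb9b, a serine protease inhibitor, had 10.8 and 11.5 CPM in K36M cells with TGF-beta and 106 and 98.9 CPM with Repsox. WT cells had 58.5 and 53.9 CPM with TGF-beta and 47.9 and 52.2 CPM with Repsox (interaction -3.36 ± 0.14 SE, adjusted p = 2.16e-14). Serpinb9b was sorted as reversed without WT Repsox replicate 2. Amz1, a metallopeptidase, had 1.33 and 0.874 CPM in K36M cells with TGF-beta and 20.3 and 19 CPM with Repsox. WT cells had 6.54 and 4.88 CPM with TGF-beta and 7.62 and 7.48 CPM with Repsox (interaction -3.72 ± 0.35 SE, adjusted p = 9.65e-09). All 3 were highest in K36M with Repsox.

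Reversed genes that fell in K36M included Dlc1, a GTPase-activating protein (chr8:37630805-38015490), at 135 and 143 CPM in K36M cells with TGF-beta and 279 and 259.9 CPM with Repsox. WT cells had 769.99 and 785 CPM with TGF-beta and 153 and 138 CPM with Repsox (interaction -3.37 ± 0.10 SE, adjusted p = 1.13e-16). Fam176a had 1.56 and 2.27 CPM in K36M cells with TGF-beta and 8.89 and 11.4 CPM with Repsox. WT cells had 51.6 and 51.6 CPM with TGF-beta and 4.38 and 4.76 CPM with Repsox (interaction -5.90 ± 0.28 SE, adjusted p = 9.58e-14). Hcn4, a pacemaker ion channel, had 0.86 and 0.786 CPM in K36M cells with TGF-beta and 2.63 and 2.73 CPM with Repsox. WT cells had 13.2 and 13.9 CPM with TGF-beta and 0.809 and 0.604 CPM with Repsox (interaction -5.92 ± 0.48 SE, adjusted p = 7.47e-10). In Dlc1, Fam176a and Hcn4 the 2 WT TGF-beta libraries were the highest of the 8. Frem2, a basement-membrane protein that rose in K36M and fell in WT, had 299 and 297 CPM in K36M cells with TGF-beta and 131 and 136 CPM with Repsox. WT cells had 2.32 and 1.94 CPM with TGF-beta and 67.4 and 65.1 CPM with Repsox (interaction 6.12 ± 0.16 SE, adjusted p = 1.03e-17).

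Markers of other cell types moved with medium and genotype as well. Defining markers were near 0 for blood and skeletal muscle: Ptprc, Myod1 and Myog had at most 3 counts in any library. Adipoq had at most 6 counts and Emcn, an endothelial marker, at most 1. Some members of these lists were expressed nonetheless. Of 9 tested endothelial genes the interaction was higher in 7 and lower in 1. Of all tested genes it was higher in 28.5% and lower in 22.6%. Pecam1, an adhesion molecule of vessels, had 10.3 and 9.7 CPM in K36M cells with TGF-beta and 43.4 and 37.9 CPM with Repsox. WT cells had 0.43 and 0.287 CPM with TGF-beta and 18.6 and 14.8 CPM with Repsox (interaction 3.51 ± 0.39 SE, adjusted p = 1.19e-07). Flt1, a VEGF receptor, had 59.9 and 56.3 CPM in K36M cells with TGF-beta and 47 and 47.7 CPM with Repsox. WT cells had 3.53 and 4.02 CPM with TGF-beta and 9.17 and 13.1 CPM with Repsox. Its interaction was 1.84 ± 0.23 (SE, adjusted p = 5.05e-07), and it was sorted as blunted rather than reversed with DESeq2, at an adjusted p of 0.01 or without any 1 of the 4 K36M libraries or either WT TGF-beta library. Summed endothelial levels were 159 and 154 CPM in K36M cells with TGF-beta and 132 and 126 CPM with Repsox. WT sums were 125 and 124 CPM with TGF-beta and 65 and 69.6 CPM with Repsox. The WT sum rose although 7 of the 9 genes fell and 1 rose in WT. In K36M 3 rose and 3 fell. Of 7 tested neural genes 2 were higher, a share close to the 28.5% of all tested genes, and 3 lower. Neural sums were 273 and 259.6 CPM in K36M cells with TGF-beta and 106 and 98.7 CPM with Repsox. WT sums were 1691 and 1888 CPM with TGF-beta and 214 and 198 CPM with Repsox. Ncam1, a neural adhesion molecule, had 14.8 and 19.9 CPM in K36M cells with TGF-beta and 5.46 and 4.34 CPM with Repsox. WT cells had 536 and 583 CPM with TGF-beta and 26.6 and 27.9 CPM with Repsox. Their part in the results above was not tested.

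Of 7 tested keratinocyte genes the interaction was higher in 4 and lower in 1. Of all tested genes it was higher in 28.5% and lower in 22.6%, the background for every list in this paragraph. Keratinocyte sums were 334 and 313 CPM in K36M cells with TGF-beta and 111 and 98.7 CPM with Repsox. WT sums were 389.7 and 386 CPM with TGF-beta and 96.1 and 84 CPM with Repsox, so that the sums with TGF-beta were above those with Repsox in both genotypes. By gene, 3 rose and 0 fell in K36M, but 1 rose and 3 fell in WT. The higher WT sum thus does not describe most members. Krt17, a keratin of stressed epidermis, had 47.4 and 50.2 CPM in K36M cells with TGF-beta and 5.2 and 3.22 CPM with Repsox. WT cells had 3.27 and 1.87 CPM with TGF-beta and 1.82 and 2.64 CPM with Repsox (interaction 3.32 ± 0.40 SE, adjusted p = 2.95e-07). Krt5, a basal keratin, had 12.5 and 9.52 CPM in K36M cells with TGF-beta and 1.38 and 0.885 CPM with Repsox. WT cells had 0.172 and 0.0718 CPM with TGF-beta and 0.674 and 1.96 CPM with Repsox. The WT libraries with TGF-beta held 3 counts of Krt5, a Repsox over TGF-beta ratio of 10.9 (exact 95% interval 3.45 to 55.4). Striated muscle sums were 147 and 149.8 CPM in K36M cells with TGF-beta and 89.3 and 87.6 CPM with Repsox. WT sums were 37.4 and 37.4 CPM with TGF-beta and 59.7 and 52.7 CPM with Repsox. Of 10 tested muscle genes 6 were higher and 1 lower (2 without WT Repsox replicate 1). Des, desmin, had 41.3 and 35.3 CPM in K36M cells with TGF-beta and 16.5 and 17.1 CPM with Repsox. WT cells had 0.775 and 1.01 CPM with TGF-beta and 8.7 and 4.83 CPM with Repsox. Tnnt2 went the other way, with an interaction of -3.38 ± 0.64 (SE, adjusted p = 0.000125). Its WT response was 4.12, resting on 149 counts with TGF-beta and 9 with Repsox, and its K36M response of 0.74 did not pass. By gene, 6 muscle genes rose and 0 fell in K36M, and 2 rose and 4 fell in WT. Of 4 tested blood genes 1 was higher and 1 lower, a share close to that of all tested genes (51.0% in either direction). Laptm5, a lysosomal protein, had 138 and 149 CPM in K36M cells with TGF-beta and 83.4 and 80.8 CPM with Repsox. WT cells had 829 and 843 CPM with TGF-beta and 122 and 108 CPM with Repsox. Csf1r, a macrophage receptor, had 7.03 and 7.51 CPM in K36M cells with TGF-beta and 47.9 and 47.1 CPM with Repsox. WT cells had 0.947 and 0.359 CPM with TGF-beta and 11.6 and 9.37 CPM with Repsox. The Csf1r interaction of 1.34 ± 0.39 (SE, adjusted p = 0.00666) was 2.13 without WT TGF-beta replicate 1, and 0.75 without WT TGF-beta replicate 2, where it did not pass (adjusted p = 0.174, edgeR), leaving 0 blood genes higher. Of 3 tested adipocyte genes 1 was higher and 2 lower. Pparg, the adipocyte receptor, had 0 and 0.175 CPM in K36M cells with TGF-beta and 24.8 and 22.9 CPM with Repsox. WT cells had 0.603 and 1.58 CPM with TGF-beta and 15.9 and 18.8 CPM with Repsox. Its K36M fall rested on 2 counts with TGF-beta against 661 with Repsox, a Repsox over TGF-beta ratio of 290 (exact 95% interval 80 to 2400); the interaction of -4.09 ± 0.82 (SE, adjusted p = 0.000231) was -7.40 without K36M TGF-beta replicate 2. The part of these markers was not tested.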

How the data were processed

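The deposited table held raw counts for 26930 genes in 8 libraries, and 3195 genes were at 0 throughout. The submitters' processing notes name mm9, the aligner STAR 2.5.0, the counter HTSeq 0.11.2 and edgeR; the annotation, the strand setting and the role of edgeR are not given in the sources used here. Because of that, reads of overlapping, antisense or near-identical genes could be shared. Totals ran from 10928302 to 15594217 counts per library.

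After filterByExpr, 15789 genes were fitted in edgeR 4.0.16 (R 4.3.3) with TMM scaling and 4 group means, leaving 4 residual degrees of freedom. Contrasts were tested by quasi-likelihood F, with Benjamini-Hochberg adjustment over all tested genes and a threshold of 0.05. The common biological coefficient of variation was 0.0702. Every adjusted p in the text comes from this test unless DESeq2 1.42.0 or limma 3.58.1 is named. Standard errors are the log2 difference divided by the square root of F, and CPM were computed from counts and TMM-scaled totals. Ratios with 1 to 3 counts in a group have exact intervals that cover counting error only. Coordinates are from GENCODE vM1 on mm9, in which 167 identifiers had no entry; RefSeq promoters (GRCm38.p6) matched 43 of the 76 named genes. The script was checked on simulated counts.

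The contrast, the 24 gene lists and the rule for named genes were chosen with earlier results of these data known. The rule took, for each class and direction at an average log2 CPM of at least 2, the 2 smallest interaction p-values and the 2 largest interactions with 20 counts or more in every group; from each list the called pair of smallest adjusted p; and 14 genes followed throughout. Predicted loci, pseudogenes, mitochondrial and small RNA genes and histone cluster genes were left out, and some named genes are not reported here.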

Additional observations from a re-analysis of the deposited data

Results flagged for a closer look

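The response to TGF-beta differed between the genotypes for 71 of the 73 named genes reported, and each is listed here for that reason. The test was that of the interaction itself (edgeR, adjusted p below 0.05). Apart from the genes followed throughout, the naming rule took only genes whose interaction passed. The count of 71 therefore does not show how common such differences were. Over all tested genes, the interaction passed in 51.0%. Among the named genes induced in WT and blunted in K36M, the log2 interaction was -5.83 for Osbp2, -5.20 for Lox, -3.38 for Tnnt2, -3.29 for Cryab, -3.00 for Ctgf, -2.56 for Ncam1 and -2.21 for Sparc. Smaller in size were -2.06 for Laptm5, -1.98 for Tagln, -1.46 for Cald1, -1.31 for Smad7 and -0.33 for Klf4. For genes repressed in WT and blunted in K36M it was 6.62 for Crabp1, 5.92 for Krt7, 5.79 for Stc1, 4.63 for Krt18, 4.61 for Dnmt3b, 4.42 for Tgfbr3 and 4.42 for Eomes. Smaller in size were 4.40 for Tfap2c, 4.13 for Cdh1, 4.11 for Krt8, 4.01 for Sall4, 3.90 for Nanog, 3.51 for Pecam1 and 3.25 for Peg3. Smallest in size were 3.24 for Cdkn1c, 2.79 for Peg10, 2.35 for Bst2, 2.34 for Id2, 1.51 for Id1 and 1.34 for Csf1r. For genes induced more in K36M it was 5.73 for Chst15, 3.86 for Mmp9, 3.32 for Krt17, 2.79 for Aldh3a1, 1.55 for Cdkn2a, 0.68 for H3f3a and 0.59 for Col1a1. Smaller in size were 0.49 for Pou5f1 and 0.42 for H3f3b. For genes repressed more in K36M it was -4.09 for Pparg, -3.87 for Lgals9, -3.72 for Amz1, -3.36 for Serpinb9b and -1.17 for Lpl. For genes that rose in K36M and fell in WT it was 6.90 for Nodal, 6.61 for Krt5, 6.45 for Wnt3, 6.41 for Tdgf1, 6.40 for Wnt8a, 6.12 for Frem2 and 5.65 for Thy1. Smaller in size were 4.20 for Col6a2, 4.10 for Des, 4.07 for Epcam, 3.28 for Cdc20, 2.94 for Top2a, 2.56 for Prrx2 and 2.32 for Egr1. Smallest in size were 1.99 for Ltbp1, 1.84 for Flt1, 1.58 for Pdgfrb and 1.40 for Tcf4. For genes that fell in K36M and rose in WT it was -5.92 for Hcn4, -5.90 for Fam176a, -3.37 for Dlc1, -3.13 for Tubb3, -1.15 for Whsc1l1, -0.99 for Maff and -0.91 for Sox2. Vim and Myc, the other named genes, did not pass. No group had enough libraries for a check of single outlying libraries.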

How the results depend on the processing

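With 2 libraries per group, calls rest on a spread shared over genes and groups. Of 93 recomputed counts of interactions and classes, 88 were within 1.5 times the reported count. The 5 others were 1106 reversed genes at an adjusted p below 0.01, and, requiring an interaction of at least 1 on the log2 scale, 2781 interactions higher and 1450 lower, with 2257 blunted and 665 amplified genes. Leaving out 1 library at a time gave 3999 to 4590 interactions higher, 3097 to 3719 lower, 3772 to 4341 blunted, 1392 to 1922 amplified and 1276 to 1982 reversed genes; the lone library of a group was then assumed to vary like the other groups.

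Scaling set the balance of directions. Interactions were higher in 55.8% of the genes called with TMM, in 69.8% with total counts alone (5738 higher, 2482 lower) and in 63.6% with upper-quartile scaling (5174 higher, 2956 lower), as the median interaction of all genes moved to 0.31 and 0.21. With total counts alone 83.7% of blunted, 63.8% of amplified and 83.4% of reversed genes kept their class. DESeq2 called 3896 higher and 3304 lower, and limma-voom 4480 higher and 3603 lower. Sized in CPM instead of log2, 4052 genes were blunted and 1956 amplified; Krt18, Peg3, Cdkn1c, Pecam1, Peg10, Bst2, Csf1r, Krt7 and Tfap2c were then amplified and Col1a1 blunted.

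A replicate block gave 4513 interactions higher and 3587 lower, with 4318 blunted, 1785 amplified and 1801 reversed genes. Same-numbered libraries shared little deviation: the correlation of same-numbered deviations was -0.03 to 0.09 over the pairs of groups. The labels do not say if same-numbered libraries shared a culture, and low correlations cannot settle it.

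Over the named genes, 1275 of 1290 recomputed interactions kept their sign and side of the threshold. Myc changed sign with total counts alone, at 0.0401 and without passing; 6 no longer passed (Klf4, Col1a1 and Csf1r) and 8 newly passed (Vim and Myc). Of 816 recomputed list counts, 48 moved by more than 1.5 times. Depth limits the genes with few counts, such as Pparg, Krt5 and the primitive streak genes.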
